A study of Mus musculus with 4 samples.

Results

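The complement system was examined through 9 genes measured in the nasal mucosa of young adult and aged mice: the complement component genes *C1qa*, *C1qb*, *C1qc*, *C2*, *C3* and *C4b*, the complement factor genes *Cfb* and *Cfd*, and the inhibitor gene *Serping1*. They were taken by symbol, as every non-control probe on the array whose RefSeq accession mapped to one of these names. The choice gave 13 of 56605 probes and 9 of the 45604 genes tested, with 2 probes each for *C3*, *C4b*, *Cfb* and *Cfd* and 1 probe for each of the others.

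Complement is a cascade of plasma and tissue proteins that tags particles for uptake, recruits leukocytes and can pierce membranes. In the classical route, C1q binds antibody or cell debris, and its attached proteases cleave C4 and C2 to form an enzyme that splits C3. C1 inhibitor, encoded by *Serping1*, holds back these proteases of C1. In the alternative route, factor D cleaves factor B once it is bound to C3b. This builds a C3-splitting enzyme that feeds on its own product. The liver makes most of the plasma pool, while C1q comes mainly from macrophages, and epithelial cells, fibroblasts and adipocytes make several components locally.

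The study asked how gene expression in the olfactory mucosa changes with age. RNA of nasal mucosa, labelled as olfactory epithelium, came from male C57BL/6 mice aged 8 weeks (young adult) or 16 months (aged). No treatment is stated in the study's methods, and the RNA was hybridized to 4 one-color arrays, 2 per age. Each array carried the RNA of 5 pooled mice. Some label fields of these samples describe silica aspiration and lung cells, which matches neither their titles nor the study. Whether both pools of one age drew on the same mice is not stated, and the study counts fewer mice for gene analyses than separate pools would need, so the P-values measure only the spread between pools, which may be technical. The first array of each age shared a slide, and each remaining array had its own. Signal was well above background for 68.1 and 76.8% of non-control spots on the young adult and for 63.1 and 72.7% on the aged arrays, and 0 spots were saturated.

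The tissue label was checked against marker genes. All 10 markers of mature olfactory receptor neurons and all 8 markers of sustentacular cells were well above background on all 4 arrays. *Omp*, the olfactory marker protein gene, had a quantile-normalized intensity, called level from here on, of 300800 and 286100 on the young adult and 317800 and 332600 on the aged arrays. Genes of the sex chromosomes went against the stated sex. *Xist*, a transcript of the inactive X chromosome in female cells, had levels from 612.3 to 645.4 on the 4 arrays, and 1 of 11 probes for 8 Y-linked genes was well above background on any array, with levels of these probes from 7.48 to 63.0. Both ages were alike in this. Hormone genes of the anterior pituitary also set the aged arrays apart. *Prl*, the prolactin gene, had levels of 282.5 and 237.6 on the young adult and 8155 and 7969 on the aged arrays. *Gh*, the growth hormone gene, did not pass the scanner's background limit on the young adult arrays and had levels of 326.2 and 336.1 on the aged arrays. Both arrays of the aged group share this, so no value could be given without it.

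A gene was called different with age at P below 0.05 and a Benjamini-Hochberg false discovery rate (FDR) below 0.25 in limma, over all 45604 genes. By this rule 3 of the 9 complement genes were called, *C1qc* and *Cfb* as lower and *Cfd* as higher in aged mucosa, while 3.98% of all genes were called (1.65% higher and 2.33% lower). *C1qa* and *Serping1* joined them at an unadjusted P below 0.05, making 5 of 9, against 13.1% of all genes. The study's methods further require a fold change of at least 1.5 at a mean level of at least 100, and with these limits 0 of the 9 genes and 1.96% of all genes were called in limma. The arrays of the ages did not overlap for 8 of the 9 genes, 2 higher and 6 lower in aged mucosa. Over all genes, 46% did not overlap, 24.2% with both aged arrays above and 21.8% with both below. The median log2 fold change, aged over young adult, was −0.18 over the 9 genes and 0.0093 over all genes. A block for the replicate number ended every call in limma (smallest FDR 0.433), and so did leaving out any 1 array. The smallest FDR of any gene was 0.44 without young adult array 1, 0.458 without young adult array 2, 0.677 without aged array 1 and 0.408 without aged array 2, and of the 9 genes 3, 4, 3 and 3 had an unadjusted P below 0.05, when 5158, 4770, 3294 and 5291 of all genes did.

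**Figure D1:**
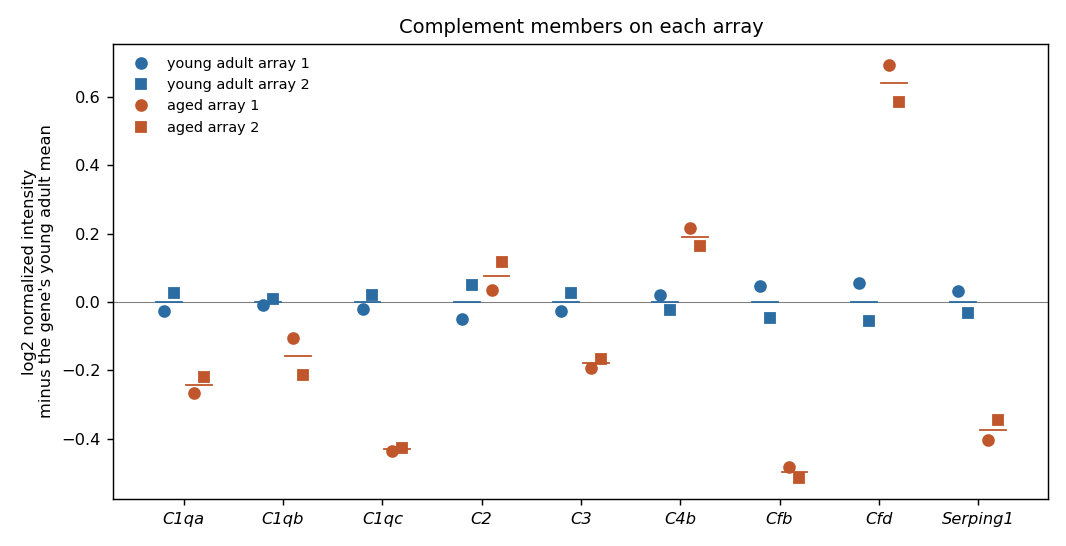
Level of each of the 9 complement genes on each array, as log2 normalized intensity minus the mean of the gene's young adult arrays. Blue marks are young adult arrays, orange marks aged arrays, circles array 1 and squares array 2 of each age, and short lines the mean of each age. *C1qc*, *Cfb* and *Serping1* lay furthest below their young adult arrays, *Cfd* lay 0.64 above, and only *C2* overlapped between the ages.

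The recognition subunit of the classical route is built from chains A, B and C of C1q. *C1qc*, encoding chain C, had levels of 2170 and 2231 on the young adult and 1627 and 1636 on the aged arrays. Both aged arrays were below both young adult arrays, by far more than arrays of one age differed. Its mean level was 2201 ± 43.2 (SD, n = 2 pools) in young adult and 1632 ± 6.34 in aged mucosa. In limma the log2 fold change was −0.43 (standard error 0.075, 95% interval −0.66 to −0.21, FDR = 0.238), a 1.35-fold lower level, and it was −0.42 between the arrays that shared a slide. The call was lost with scaling to the 75th percentile (FDR = 0.258), with the scanner's processed signal on that scale (FDR = 0.301), with robust eBayes (FDR = 0.261), with the replicate block (FDR = 0.433) and without any 1 array, and over all alternatives the FDR ran from 0.00597 to 0.677.

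*C1qa*, encoding chain A, had levels of 1584 and 1644 on the young adult and 1341 and 1387 on the aged arrays. Both aged arrays were again the lower ones. Its log2 fold change was −0.24 (standard error 0.079, interval −0.48 to −0.0080), which did not pass the FDR limit (FDR = 0.37). *C1qb*, encoding chain B, had levels of 1652 and 1671 on the young adult and 1546 and 1434 on the aged arrays. The aged arrays lay below the young adult arrays here too, with the aged arrays further apart than the young adult arrays. Its log2 fold change of −0.16 (standard error 0.085, interval −0.41 to 0.095, FDR = 0.538) was not called, and it was −0.10 without aged array 2 and −0.096 between the arrays of the shared slide. On the log2 scale the *C1qc* level relative to *C1qb* differed by −0.27 between ages, and the exact two-sided permutation test over the 4 arrays gave P = 0.333, the smallest it can give. The shift was −0.19 for *C1qc* relative to *C1qa* (exact permutation P = 0.333) and −0.085 for *C1qa* relative to *C1qb* (exact permutation P = 0.667).

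The C1q genes lie side by side on chromosome 4 in the RefSeq gene table, in the order *C1qb*, *C1qc*, *C1qa*, with no other gene listed between them. RefSeq sequence before the gene start was matched for 4 of the 9 genes, *C1qb*, *C1qc*, *C3* and *Cfd* (assembly GRCm38.p6), and not for *C1qa*, *C2*, *C4b*, *Cfb* and *Serping1*. It was searched on both strands for the PU.1 core GAGGAA, the interferon-type element GAAANNGAA, the STAT element TTCNNNGAA, the C/EBP element TTNNGCAA and the TATA box TATAAA. The sequences of the neighbours *C1qb* (chr4:136886201-136886450, minus strand) and *C1qc* (chr4:136892915-136893164, minus strand) are shown because their levels were lower on both aged arrays, each as the 250 bases that end at the gene start, with capitals marking the match to the PU.1 core or its reverse complement. PU.1 is a transcription factor of macrophages and other myeloid cells.
C1qb: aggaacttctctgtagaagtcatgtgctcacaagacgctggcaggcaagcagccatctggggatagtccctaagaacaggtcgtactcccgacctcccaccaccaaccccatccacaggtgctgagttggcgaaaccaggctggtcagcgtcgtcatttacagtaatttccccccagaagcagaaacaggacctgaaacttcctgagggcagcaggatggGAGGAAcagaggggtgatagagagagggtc
C1qc: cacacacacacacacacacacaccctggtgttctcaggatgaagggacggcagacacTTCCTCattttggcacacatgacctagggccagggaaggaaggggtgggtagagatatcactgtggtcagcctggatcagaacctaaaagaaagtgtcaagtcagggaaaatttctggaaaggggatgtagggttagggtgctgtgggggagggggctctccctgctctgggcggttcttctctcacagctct
The match began 30 bases before the start of *C1qb* on the gene's strand and 193 bases before the start of *C1qc* on the opposite strand. No other of the motifs searched, and so no overlapping match, was found in either window. Of 32851 promoter windows of this length, 23.3% held the PU.1 core, and binding at these letters was not tested.

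The genes most like C1q across the arrays were ranked by the distance of their mean-centred log2 levels from the mean of the C1q chains, which were 0.12 and 0.16 in young adult and −0.13 and −0.15 in aged arrays. Among 15465 genes with a mean level of at least 100, the nearest 5 were *Cnpy2*, *Serinc2*, *Rab29*, *H2ac23* and *Gm20627*, with root mean square distances over the 4 arrays from 0.00432 to 0.0108. These 5 were not called (limma FDR from 0.306 to 0.325). The chains themselves spread around their mean log2 fold change of −0.28, with −0.43 for *C1qc*, −0.24 for *C1qa* and −0.16 for *C1qb*. How near a match arises by chance among so many genes on 4 arrays was not tested.

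Because macrophages make most C1q, their markers were counted as well. Of 14 macrophage markers, 0 were called higher and 5 were called lower (1.65% and 2.33% over all genes). The 5 were *Cd68* (log2 fold change −0.78), *Mrc1* (−0.65), *Aif1* (−0.82), *Cx3cr1* (−0.94) and *Ms4a7* (−0.95). The list's median was −0.45 and its summed level was 13230 and 13390 on the young adult and 10100 and 10170 on the aged arrays. All 14 markers were well above background on all 4 arrays, and the most intense, *Cd14*, which encodes a receptor for bacterial lipopolysaccharide, did not separate by age (3077 and 2844 against 3153 and 3054). Fewer macrophages and less C1q RNA per macrophage cannot be told apart in bulk tissue, and the markers' part in the C1q values was not tested.

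C4 and C2 are the substrates of the C1 proteases. *C4b* had levels of 1932 and 1874 on the young adult and 2210 and 2133 on the aged arrays. Both aged arrays lay above both young adult arrays. The log2 fold change was 0.19 (standard error 0.078, interval −0.043 to 0.42, FDR = 0.445), and its 2 probes gave 0.24 and 0.14. It was not called. *C4b* and its neighbour *C4a* are near-identical copies, so which transcript each probe measures is uncertain. The *C4a* probe had a log2 fold change of 0.11 (interval −0.14 to 0.36).

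*C2* had levels of 6990 and 7497 on the young adult and 7417 and 7854 on the aged arrays. It was the only one of the 9 genes whose ages overlapped. The difference between ages, 0.08 on the log2 scale (standard error 0.089, FDR = 0.754), was not called, and its 95% interval ran from −0.19 to 0.34. The difference was 0.024 without young adult array 1, 0.13 without young adult array 2, 0.12 without aged array 1 and 0.034 without aged array 2.

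C3, on which all routes converge, is cleaved into the tag C3b and the peptide signal C3a. *C3* had levels of 4662 and 4836 on the young adult and 4157 and 4226 on the aged arrays. Both aged arrays were lower than both young adult arrays. The log2 fold change was −0.18 (standard error 0.077, interval −0.41 to 0.050, FDR = 0.458), with −0.24 and −0.12 from its 2 probes, and it was not called. The *C3* sequence before the gene start (chr17:57228137-57228386, minus strand) is shown because *C3* is an acute-phase gene and held the one C/EBP match among the 4 windows. Capitals mark the match, on the opposite strand, to the C/EBP element.
C3: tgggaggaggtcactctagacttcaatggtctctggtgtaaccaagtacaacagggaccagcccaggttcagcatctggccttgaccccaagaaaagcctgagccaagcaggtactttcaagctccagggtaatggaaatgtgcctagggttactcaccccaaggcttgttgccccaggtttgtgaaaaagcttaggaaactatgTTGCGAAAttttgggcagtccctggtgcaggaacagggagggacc
The match began 45 bases before the start, no other motif searched was found, and 9.56% of the 32851 windows held this element. In the *Cfd* window 0 of the 5 motifs was found. Binding by C/EBP proteins was not tested.

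Factor B and factor D act together in the alternative route, and their genes moved in opposite directions. *Cfb*, encoding factor B, had levels of 805.2 and 755.7 on the young adult and 558.5 and 545.5 on the aged arrays. Every aged value was well under every young adult value. The mean level was 780.4 ± 35.1 (SD, n = 2 pools) in young adult and 552.0 ± 9.20 in aged mucosa. In limma the log2 fold change was −0.50 (standard error 0.083, interval −0.75 to −0.25, FDR = 0.228), a 1.41-fold lower level, and −0.53 within the shared slide. Its 2 probes gave −0.53 and −0.47. The call was lost with scaling to the 75th percentile (FDR = 0.255), with robust eBayes (FDR = 0.251), with the replicate block (FDR = 0.433) and without any 1 array, and over all alternatives the FDR ran from 0.0123 to 0.677.

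*Cfb* and *C2* encode related proteases and lie next to each other on chromosome 17, with the microRNA gene *Mir6972* as the only gene listed between them. The difference between *Cfb* and *C2* on the log2 scale was shifted by −0.58 in aged mucosa, in the same direction on both aged arrays (exact two-sided permutation P = 0.333, the smallest possible). The stretch of chromosome 17 from *C4b* to *C2* holds 8 protein-coding genes, and the 5 others were looked up after the values of the complement genes were known. *Stk19*, *Dxo*, *Skiv2l* and *Nelfe* had log2 fold changes of 0.0030, 0.10, 0.06 and −0.0067. *Cyp21a1*, which encodes the steroid 21-hydroxylase, had levels of 186.3 and 131.7 on the young adult and 66.3 and 78.3 on the aged arrays, a log2 fold change of −1.12 that was not called (FDR = 0.26).

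*Cfd* encodes factor D, the serine protease also known as adipsin. Its levels were 49.4 and 45.8 on the young adult and 77.0 and 71.5 on the aged arrays. Both aged arrays were above both young adult arrays, opposite to *Cfb*. The log2 fold change was 0.64 (standard error 0.094, interval 0.36 to 0.92, FDR = 0.21), a 1.56-fold higher level, and also 0.64 within the shared slide. The mean level of 60.9 was under the limit of 100.

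The *Cfd* signal was close to background. Probe 1 was well above background on all 4 arrays, with median spot intensities of 121 and 79 on the young adult and 140 and 117.5 on the aged arrays, over local backgrounds of 81 and 40 and of 72 and 46. Probe 2 was well above background on young adult array 2 and on no other array, with median spot intensities of 80 and 60 against 102 and 68, over local backgrounds of 68 and 29 and of 61 and 37. The log2 fold changes were 0.73 for probe 1 and 0.55 for probe 2, the latter mostly from spots that did not pass the background limit. Among the 9 genes the fold change of *Cfd* moved most with the background step, to 0.35 with a normexp offset of 50 (still called), and the call was lost with the processed signal, with scaling to the 75th percentile (FDR = 0.349), with the most intense probe alone (FDR = 0.258), with the replicate block (FDR = 0.433) and without any 1 array. Over all alternatives the FDR of *Cfd* ran from 0.0758 to 0.677.

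**Figure D2:**
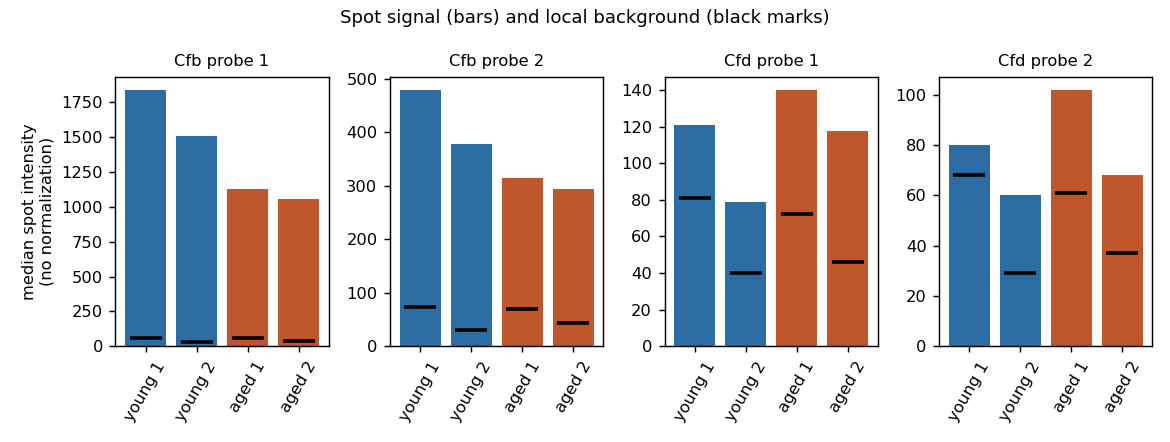
Median spot intensity, without normalization, of the 2 *Cfb* probes and the 2 *Cfd* probes on each array (bars, from 0; blue young adult, orange aged), with the local background of the same spot as a black mark. The *Cfb* bars stood far above the marks on all arrays, while the *Cfd* bars ran from 60 to 140 over backgrounds of 29 to 81.

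Adipocytes are a classical source of factor D. Of 10 adipocyte markers 1 was called higher and 0 lower (1.65% and 2.33% over all genes), with a median of 0.14. *Cidea*, a lipid droplet gene, was the one called and the most intense (4558 and 4918 against 7184 and 7449, log2 fold change 0.63), and it made up most of the list's summed level of 5667 and 6158 on the young adult and 8333 and 8732 on the aged arrays. Well above background on all 4 arrays were 5 of the 10, among them *Plin4* (261.2 and 265.7 against 314.5 and 369.3, FDR = 0.36) and *Lipe* (111.2 and 107.5 against 124.9 and 131.5, FDR = 0.396), both higher on the aged arrays and not called, and *Lep* (380.8 and 479.5 against 410.1 and 398.6), which overlapped between ages; these 3 are named after their values were seen. The remaining 5 were near background: *Adipoq* was well above it on 1 aged array, *Plin1* on 1 young adult array, *Cidec* and *Retn* on 1 array of each age, and *Ucp1* on none. *Fabp4*, named after its values were seen, was lower on both aged arrays (144.3 and 177.6 against 109.4 and 112.7) and not called. The part of fat cells in the *Cfd* value was not tested.

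*Serping1* encodes C1 inhibitor, which blocks the C1 proteases and also enzymes of the kinin system. Its levels were 13650 and 13030 on the young adult and 10070 and 10500 on the aged arrays. The aged arrays were the lower ones, with no overlap. In limma the log2 fold change was −0.38 (standard error 0.081, interval −0.62 to −0.13), a 1.30-fold lower level, and missed the FDR limit (FDR = 0.272). It was −0.44 within the shared slide and −0.31 between the other arrays. It was called in 6 of the 17 alternatives with a test, in which its FDR ran from 0.00745 to 0.677.

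Fibroblasts make C1 inhibitor, C3 and the C1 proteases, so fibroblast markers were counted beside them. Of 12 listed genes 0 were called higher and 6 lower (1.65% and 2.33% over all genes). The 6 were *Col1a1* (log2 fold change −1.98), *Col3a1* (−1.97), *Col1a2* (−1.52), *Dpt* (−1.24), *Lum* (−0.70) and *Pi16* (−0.63). The median was −0.57 and the summed level was 257600 and 232900 on the young adult and 132300 and 124800 on the aged arrays. All 12 were well above background on all 4 arrays, and *Dcn*, with the highest mean level, overlapped between ages (79510 and 66060 against 66830 and 60590). The part of fibroblasts in the *Serping1* and *C3* values was not tested.

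The wider pathway was read from 53 further complement genes, of which 52 were on the array. By the same rule 2 were called higher and 3 lower (1.65% and 2.33% over all genes). An unadjusted P below 0.05 was found for 15 (13.1% over all genes). The median log2 fold change was −0.10, with 35 genes below 0 and 17 above, and 34 genes were well above background on all 4 arrays and 11 on none.

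The 14 initiation proteases and lectins, which bind targets or cleave C4 and C2, gave 0 calls in limma (3.98% over all genes). At an unadjusted P below 0.05 were 4 (13.1% over all genes), and the median was −0.15. *C1s1*, encoding the C1 protease that cleaves C4, had levels of 7430 and 7867 on the young adult and 5842 and 6251 on the aged arrays. Both aged arrays were lower, with a log2 fold change of −0.34 (FDR = 0.31), but *C1s1* and *C1s2* are near-identical copies and their probes may not tell them apart. *Colec12*, a scavenger receptor with a collectin domain, had levels of 35910 and 34320 against 39000 and 38050, a log2 fold change of 0.13 (interval −0.10 to 0.37). *Masp1*, *Masp2*, *Mbl1*, *Fcna* and *Fcnb* were well above background on none of the arrays. Of the 2 other activation components neither was called, and *Cfp*, encoding properdin, which steadies the alternative-route enzyme, had a log2 fold change of −0.18 (interval −0.40 to 0.041).

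The terminal components assemble the membrane pore, and 1 of 7 was called, as higher (1.65% over all genes). *C9*, the subunit that lines the pore, had levels of 584.0 and 480.0 on the young adult and 1122 and 989.2 on the aged arrays. The ages were widely apart, and the log2 fold change was 0.99 (standard error 0.149, limma FDR = 0.213). *C8g*, encoding a lipocalin bound to C8, had levels of 708.6 and 651.7 against 561.1 and 585.5, and its log2 fold change of −0.25 was not called (interval −0.51 to 0.024). *C8b* was well above background on no array, and the median of the group was −0.10.

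Among 19 soluble and membrane regulators 1 was called higher and 0 lower (1.65% and 2.33% over all genes), with a median of −0.09. *Cfi*, encoding the protease that inactivates C3b and C4b, had levels of 295.4 and 275.1 on the young adult and 565.5 and 563.2 on the aged arrays. Both aged values were far above the young adult values, and the log2 fold change was 0.99 (standard error 0.084, limma FDR = 0.178). *Clu*, encoding clusterin, which binds terminal complexes, had levels of 87060 and 82170 against 97800 and 99630, a log2 fold change of 0.22 (interval −0.019 to 0.46, FDR = 0.406). *Clu* was not called, although the ages did not overlap. *C4bp*, *Csmd2* and *Cpn2* were well above background on no array.

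Of 10 receptors, 0 were called higher and 3 lower (1.65% and 2.33% over all genes), with a median of −0.13. *Itgb2*, encoding the shared chain of the C3 fragment receptors CR3 and CR4, had levels of 390.5 and 447.6 on the young adult and 244.2 and 252.7 on the aged arrays (log2 fold change −0.75, FDR = 0.209). *Itgax*, encoding the CR4 partner chain, had levels of 162.6 and 162.6 against 93.8 and 101.9 (−0.73, FDR = 0.193). *Cd93*, a C-type lectin of endothelial and myeloid cells once described as a C1q receptor, had levels of 4393 and 4194 against 2810 and 2732 (−0.63, FDR = 0.201). In all of these the ages were clearly apart. The *Itgax* call was lost with the processed signal, at the 75th percentile (FDR = 0.555) and quantile normalized (FDR = 0.275, log2 fold change −0.46), and its fold change was also −0.46 with a normexp offset of 50, where it was called. The *Itgb2* call was lost with the processed signal at the 75th percentile (FDR = 0.252). Over all alternatives the FDR ran from 0.0384 to 0.677 for *Itgax* and from 0.0104 to 0.677 for *Itgb2*. *Itgam*, encoding the CR3 partner chain, is given here after its values were seen: it overlapped between ages, with a log2 fold change of −0.0096 and an interval from −0.48 to 0.46. *C1qbp*, encoding a mostly mitochondrial protein named for binding C1q, had a log2 fold change of 0.09 (interval −0.13 to 0.32), and *Vsig4* was well above background on no array.

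**Figure D3:**
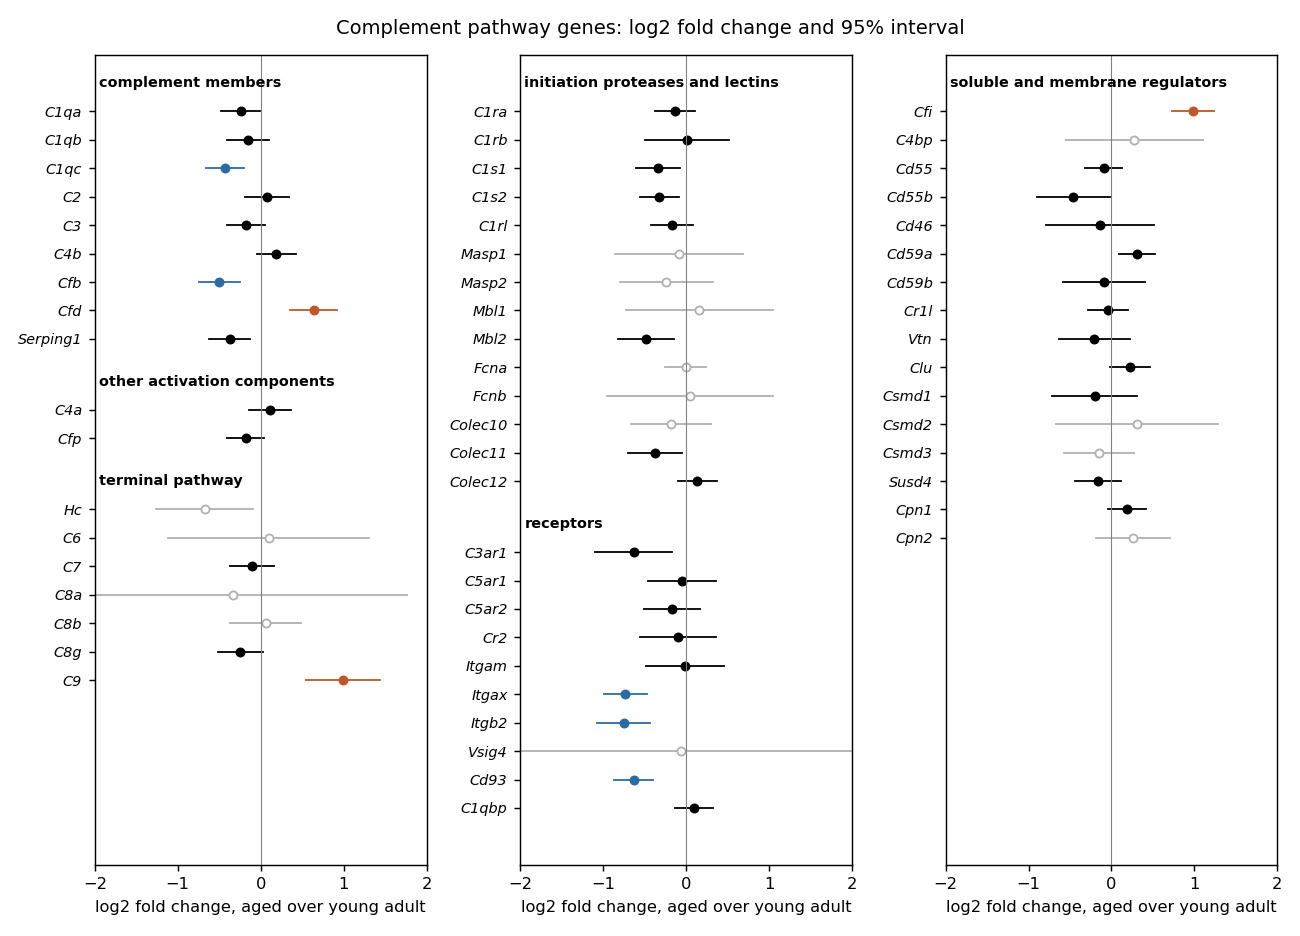
Log2 fold change, aged over young adult, of the 9 members and of other complement genes by role (points) with 95% intervals (lines). Orange marks genes called higher, blue genes called lower, black genes not called, and open grey circles genes not well above background on both arrays of either age; the intervals of *C8a* and *Vsig4* run past the axis. *Cfd*, *C9* and *Cfi* were the genes called higher in the plot, at 0.64, 0.99 and 0.99.

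Leukocytes other than macrophages also carry CR3 and CR4. Of 10 neutrophil markers 0 were called higher and 5 lower (1.65% and 2.33% over all genes). The 5 were *S100a8* (−1.07), *S100a9* (−1.08), *Ngp* (−0.71), *Ltf* (−0.67) and *Retnlg* (−0.75), and the list's median was −0.59. *Ngp*, *Retnlg* and *Cxcr2* were well above background on 1 of the 2 aged arrays. *Csf3r*, named after its values were seen and second to *Ltf* in mean level, was higher on both aged arrays (118500 and 112200 against 123800 and 123800) and not called. The summed level was 397200 and 379700 on the young adult and 298500 and 288900 on the aged arrays, and *Ltf*, the most intense, is also made by glands. Of 8 B and plasma cell markers, the source of the antibody that C1q binds, 0 were called in limma (3.98% over all genes). An unadjusted P below 0.05 was found for 0 of them (13.1% over all genes). Their median was −0.14, the summed level was 8920 and 8705 on the young adult and 8845 and 7402 on the aged arrays. Most intense was *Jchain* (7595 and 7297 against 7358 and 6196), while *Cd79a* was well above background on 1 young adult array and *Ms4a1* on 1 array of each age. The part of these cells in the receptor values was not tested.

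The liver is the main source of plasma complement, and several of its markers were near background here. *Alb*, the albumin gene, had levels from 21.6 to 31.7, *Apoa1* and *Fgb* were well above background on no array, *Fga* on 1 young adult array, and *Fgg* on 1 array of each age. Of 8 hepatocyte markers 1 was called higher and 1 lower (1.65% and 2.33% over all genes), with a median of 0.10. *Ahsg* was called higher (436.1 and 339.5 against 862.0 and 808.5). *Ttr* was called lower (71.3 and 58.5 against 19.6 and 20.8, not well above background on the aged arrays). The summed level was 1338 and 1346 on the young adult and 1736 and 1779 on the aged arrays, most of it from *Apoa2*, the most intense, and *Ahsg*. The pituitary list had a median of 0.74, with *Prl* and *Gh* called higher out of 8 (1.65% over all genes). Its summed level went from 1182 and 1244 to 9835 and 9312. *Cga*, encoding the alpha chain of pituitary glycoprotein hormones, was well above background on 1 aged array alone and higher on both (37.11 and 22.45 against 107.4 and 78.66, log2 fold change 1.67), but was not called (FDR = 0.26). *Tshb*, *Fshb* and *Pou1f1* of that list were well above background on no array.

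Mature olfactory receptor neuron markers had a median of 0.20, with 1 of 10 called higher (*Stoml3*, log2 fold change 0.43), when 1.65% of all genes were, and 0 lower. For all 10 both aged arrays lay above both young adult arrays, as for 24.2% of all genes. An unadjusted P below 0.05 was found for 3 (13.1% over all genes). They had summed levels of 579000 and 570200 against 632200 and 640100. Sustentacular cell markers had a median of 0.08, with 1 of 8 called higher (*Cyp1a2*, 0.54) and 0 lower (1.65% and 2.33% over all genes). Both aged arrays lay above in 4 genes and below in 2 (24.2% and 21.8% over all genes). Their summed levels were 983500 and 1002000 against 997000 and 981900, with *Cyp2a5* as the most intense.

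Interferons raise *Cfb*, *C2*, *C4b* and *Serping1* in many cells, and interleukin-6 and related cytokines raise *C3* and *Cfb*. Of 15 interferon-stimulated genes (no probe was matched to *Mx1*), 0 were called higher and 6 lower (1.65% and 2.33% over all genes). The 6 were *Irf7* (−0.81), *Oas1a* (−0.79), *Gbp3* (−0.73), *Isg15* (−0.55), *Ifit3* (−0.52) and *Bst2* (−0.50). The median was −0.36 and the summed level was 22340 and 22150 on the young adult and 16180 and 16300 on the aged arrays, with *Isg15* the most intense. *Cfb* and *Serping1* lay on the same side as this list, and *C2* and *C4b* did not.

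Acute-phase and cytokine-induced genes included calls in the other direction. Of 12, 4 were called higher and 0 lower (1.65% and 2.33% over all genes). The 4 were *Serpina3n* (log2 fold change 2.51), *Il6* (1.67, well above background on young adult array 2 alone of its age), *Lcn2* (1.17) and *Cebpd* (0.67). The median was 0.32, the summed level went from 48820 and 49850 to 73480 and 74370, *Nfkbia* had the highest mean level, and *Saa3* was well above background on no array. *C3* and *Cfb*, both acute-phase genes, had log2 fold changes of −0.18 and −0.50. Whether interferon or cytokine signals had a part in the complement values was not tested.

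**Figure D4:**
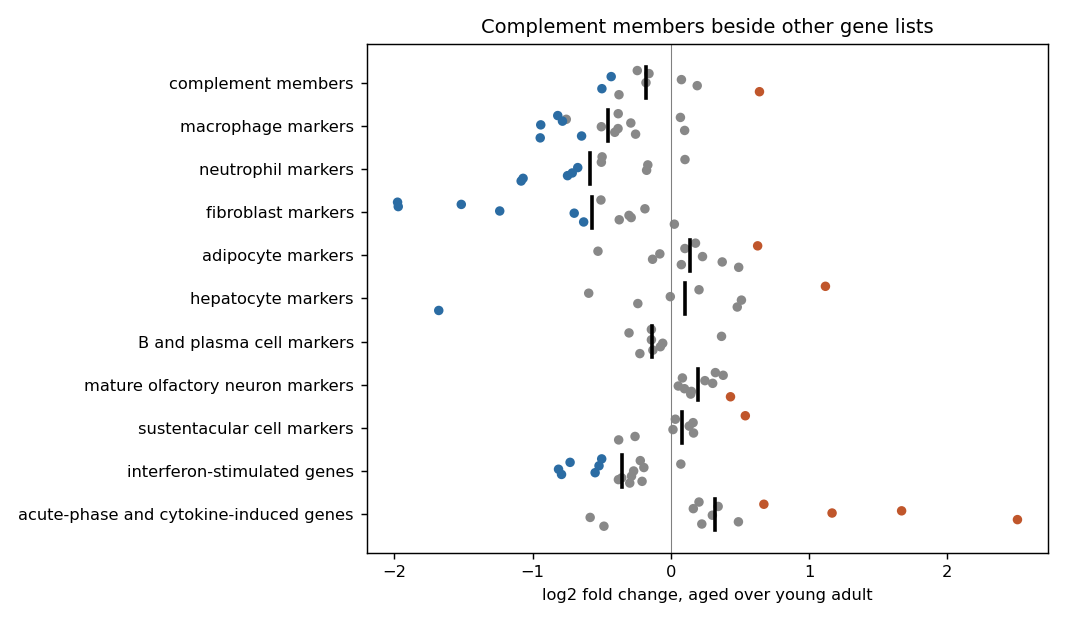
Log2 fold change, aged over young adult, of each gene in the complement set and in 10 other lists (points), with the median of each list as a black line. Orange marks genes called higher, blue genes called lower and grey genes not called. The medians were −0.45 for macrophage, −0.57 for fibroblast, −0.36 for interferon-stimulated and 0.32 for acute-phase genes, beside −0.18 for the complement set.

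The number of calls depended on how the spread and the dim probes were treated. With an intensity trend in eBayes 8 of the 9 genes were called, all but *C2*, when 15.6% of all genes were. With only probes well above background 7 were called, all but *C1qb* and *C2*, when 24.2% of the 29495 genes left were. With scaling to the 75th percentile in place of quantile normalization 0 of the 9 were called in limma and 4 had an unadjusted P below 0.05, when 1410 of all 45604 genes were called and 5726 had such a P. The sign of each of the 9 fold changes stayed the same in all 18 alternatives, but several of these could not turn it. A trend, robust eBayes and the replicate block leave the fold change as it is. Fewer arrays can hardly turn the sign of a gene whose ages do not overlap.

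**Figure D5:**
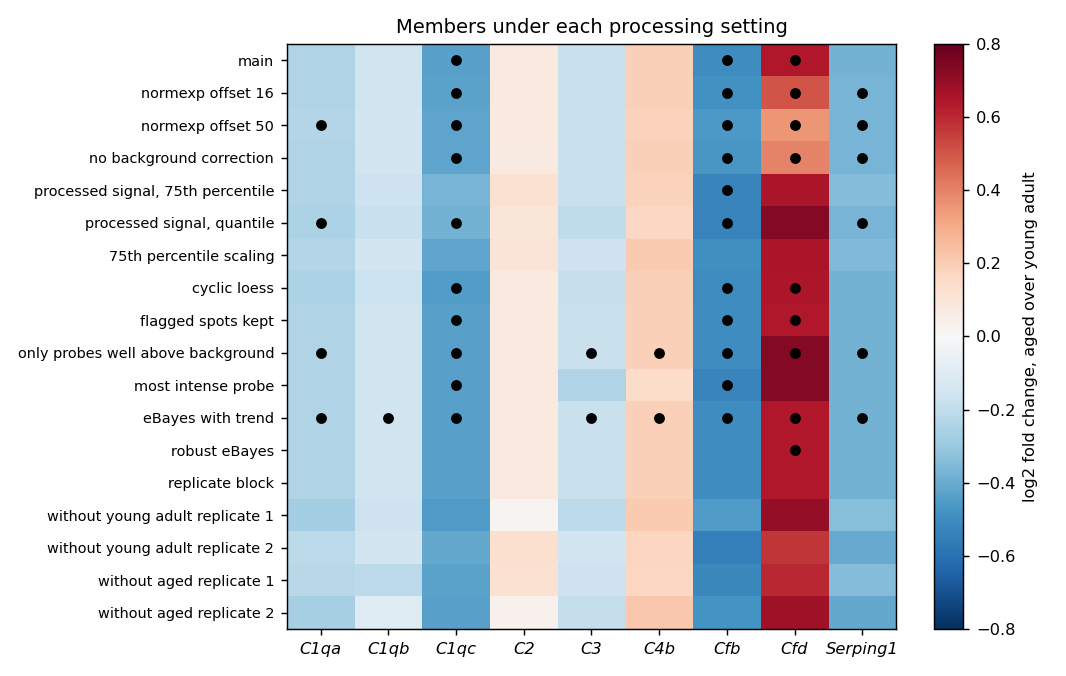
Log2 fold change, aged over young adult, of the 9 members (columns) under each processing setting (lines of the grid), with red for higher and blue for lower in aged mucosa. Black dots mark calls at P below 0.05 and FDR below 0.25. Each column keeps its color, and dots are missing from 75th percentile scaling, from the replicate block and from the settings that leave out an array.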

How the data were processed

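Gene expression was measured on Agilent one-color arrays, and per the file headers the spot values were extracted with Feature Extraction 11.0.1.1. The authors deposited, per spot, the median intensity, the median intensity of the local background, a processed intensity from which the scanner software had removed background, and flags on spot quality. No normalization across arrays had been applied. The submitters' processing notes name R 3.2.1.

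The spot medians were corrected for background with the normexp method of limma 3.58.1 (R 4.3.3) at an offset of 0. The mean spot signal was not among the columns used here, so the median was taken. Control and outlier-flagged spots were dropped, repeat spots of a probe were averaged, log2 values were quantile normalized, and probes of one gene were averaged on log2. Spots numbered 62976 per array, 59305 of them non-control. Accessions without versions matched a RefSeq gene table (GRCm38.p6) for 32994 of 56605 probes (58.3%), and the others kept the name of the array design. The table served for names and for the order of genes. Genes without a value on an array (12) were dropped, leaving 45604.

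Ages were compared with lmFit and eBayes on all 4 arrays without covariates, after the fit had been tested on simulated data. The study's methods give limma, quantile normalization and the thresholds. The few arrays limit the precision, as does the low signal over background of dim probes. The members, lists and the check on sex were chosen with earlier results of these data known. Named are all 9 members, other complement genes that were called or were among the 2 highest by mean level in their role group, and of each marker list the most intense gene, those near background and those called. The 5 genes most like C1q were ranked among those with a mean level of at least 100 and a RefSeq symbol. The alternatives tried were other offsets (16 and 50) or no background correction, the processed intensity, scaling to the 75th percentile, cyclic loess, flagged spots kept, dim probes left out, the most intense probe, a trend or robust eBayes, a block for the replicate number, the shared slide alone, each array left out, and other thresholds. The microRNA reference was not used here. Values of some listed regulator genes are not reported here, although the counts and medians of their list include them.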

Additional observations from a re-analysis of the deposited data

How the results depend on the processing

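Over all genes, 1817 calls became 2989 with a normexp offset of 16, 4582 with an offset of 50, 4027 without background correction, 4372 with the processed signal quantile normalized, 7151 with only probes well above background (29495 genes tested), 7130 with an intensity trend, 5990 by P alone, 895 with the limits on level and fold, and 0 at an FDR below 0.05. The 3 calls among the 9 members became 5 with an offset of 50, 1 with the processed signal at the 75th percentile (1506 of all genes), 0 with 75th percentile scaling (1410), 7 with only probes well above background, 8 with a trend, 1 with robust eBayes (1255), 5 by P alone, and 0 with the limits on level and fold or at an FDR below 0.05. The 5 calls among the other complement genes became 8 and 13 with offsets of 16 and 50, 12 without background correction, 12 with the processed signal quantile normalized, 18 of the 36 tested with only probes well above background, 19 with a trend, 15 by P alone and 0 at an FDR below 0.05. Leaving out each array gave 0 to 0 calls in limma for all genes, members and other complement genes alike, with 3294 to 5291 genes at an unadjusted P below 0.05. The lone array of an age is then assumed to vary like the other age. Deviations from the age mean had a correlation of −0.0779 between arrays of the same replicate number. This does not show that the number ties no arrays, because the first array of each age shared a slide. Median local background was 67 and 63 on these, against 32 and 39 on the second arrays. With the replicate block 0 genes, 0 members and 0 other complement genes were called, and the smallest FDR was 0.433. In that fit 5197 genes, 4 of them members, had an unadjusted P below 0.05. The cause of these shifts was not tested, other than fewer genes or arrays entering where a setting removes them. Slide as a random block was not run, because its correlation could be estimated for 0 genes. The 9 members and the 5 other complement genes called kept their sign in all 18 alternatives, several of which could not turn it. Log2 fold changes ran from −0.45 to −0.37 for *C1qc*, −0.55 to −0.45 for *Cfb*, 0.35 to 0.73 for *Cfd* and −0.44 to −0.34 for *Serping1*.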
